A study of Mus musculus with 6 samples.

Results

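The genes described here encode the respiratory chain and the ATP synthase of mitochondria. They were taken by name from the deposited gene table: rows whose symbol starts with Nduf, Sdh, Uqcr, Cox4, Cox5, Cox6, Cox7, Cox8, Atp5, mt-Nd, mt-Co, mt-Cytb or mt-Atp, plus Cycs and Cyc1, with a mean normalised read count of at least 10 over the 6 libraries. Of 47593 rows, 115 had such a name and 106 reached the minimum, 93 of them nuclear genes and 13 genes of the mitochondrial genome. The lowest members inside the minimum were Cox6b2, Atp5l2-ps and mt-Nd3, with means of 15.7, 17.3 and 19.1, and just outside it lay Cox6a2 with 9.27 and Cox4i2 with 3.54. The other 7 rows outside were Cox7b2 and Cox8c, which had 0 reads in all 6 libraries, the tissue-restricted forms Cox8b and Ndufa4l2, and the pseudogenes Atp5k-ps2, Atp5l-ps1 and Atp5l-ps2. Besides subunits, the names took in 11 assembly factors (Ndufaf1 to Ndufaf7 and Sdhaf1 to Sdhaf4), the supercomplex factor Cox7a2l, Atp5s and Atp5sl, which are related in name, and the pseudogene Atp5l2-ps.

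Total RNA was sequenced from mouse femur marrow cells positive for c-Kit, the surface receptor for stem cell factor that early blood progenitors carry. The cells were infected with a retroviral vector, MSCVneo, that carried the leukaemia fusion MLL-AF9, selected with the drug G418 and passaged serially in methylcellulose with cytokines. There were 3 libraries with the E531R form of the fusion, which changes its AF9 portion, and 3 with the WT form, and the series names the loss of binding between AF9 and the corepressor BCOR as its subject. Both groups therefore carried a form of the MLL-AF9 fusion in the same vector and under the same drug selection. The labels give no mouse strain, age or passage number. Whether the replicates came from different cultures or animals is not in the labels, so p-values measure the spread between these libraries, which may be technical.

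Complexes I and II pass electrons from NADH and succinate to ubiquinone, complex III passes them on to cytochrome c, and complex IV, cytochrome c oxidase, hands them to oxygen. Complexes I, III and IV pump protons across the inner mitochondrial membrane, and ATP synthase, also called complex V, uses their return to make ATP. Most subunits are encoded in the nucleus and imported, while a small set of core subunits is encoded by the mitochondrial genome, so that all of these complexes except complex II need the products of both genomes.

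The libraries held between 14161139 and 33459668 reads assigned to genes. WT replicate 3 stood apart: against the mean of WT replicates 1 and 2, the median gene of the lowest decile by transcript GC content was 0.85 lower on the log2 scale, and that of the highest decile was 0.36 higher. Counts of genes called are therefore given with all 6 libraries and without WT replicate 3. Markers of maturing myeloid cells also differed between the groups. All 9 tested neutrophil markers were higher in E531R (limma, adjusted p under 0.05), with a summed normalised read count of 67859 to 75397 in E531R libraries and 6446 to 8718 in WT libraries. Of the macrophage and monocyte markers, 9 of 10 tested were higher and 1 lower. The haemoglobin genes Hba-a1, Hba-a2 and Hbb-bs, the muscle genes Myh1, Myh2, Myh4 and Mb, and the T cell genes Cd3e, Cd4 and Cd8a had 0 reads in all libraries. Nkg7, the 1 tested gene of the T and NK cell list, was lower in E531R, as were the mast cell and basophil genes Mcpt8 and Gata2 and the endothelial and haematopoietic gene Pecam1, while 3 of 3 tested megakaryocyte genes were higher. Of 5 genes chosen here as markers of the c-Kit-positive marrow cells, Cd34, Mpo and Spi1 were higher in E531R. Kit, which encodes c-Kit, averaged 3335 in E531R and 3587 in WT. Neither Kit nor Ptprc passed the test with 6 libraries. With WT replicate 3 left out, limma called Kit lower in E531R, at -0.11 on the log2 scale (adjusted p = 0.0212). Ptprc was then called lower too, at -0.10 (limma adjusted p = 0.0393), and Cd34, Mpo and Spi1 stayed higher. In that fit 4 of 5 tested mast cell and basophil genes were lower, Kit among them. The part of these markers in the results below was not tested, and in RNA from whole cultures fewer cells of a type and less RNA per cell cannot be told apart.

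Most respiratory chain and ATP synthase genes had a slightly lower level in E531R cells, and few of these differences passed the test. With all 6 libraries, 12 of the 106 genes were lower and 0 were higher in E531R (limma on log2 values, two-sided, Benjamini-Hochberg adjusted p under 0.05). The background was 9.53% lower and 10.4% higher among all 12991 genes tested, so the share of lower calls, 12 of 106, was near it. The same counts of 12 and 0 came from edgeR on the recovered reads, where 9.63% of all genes were lower and 10.7% higher. At an unadjusted p under 0.05, 40 members were lower and 0 higher, where 16.5% of all genes were lower and 16.2% higher. The direction was more uniform than the calls: 100 of 106 log2 fold changes were negative, with a median of -0.24, against a median of 0.01 over all genes tested.

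Without WT replicate 3, 57 members were lower and 2 were higher, where 23.1% of all genes were lower and 24.3% higher. All 12 genes called with 6 libraries were among the 57. The median change was then -0.16, nearer to 0, and 91 of 106 were negative. In the raw order of the values, all 3 E531R libraries lay below all 3 WT libraries for 58 members and above them for 1, the complex II assembly factor Sdhaf2, where groups did not overlap downward in 22.8% of all genes and upward in 21.2%.

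**Figure D1:**
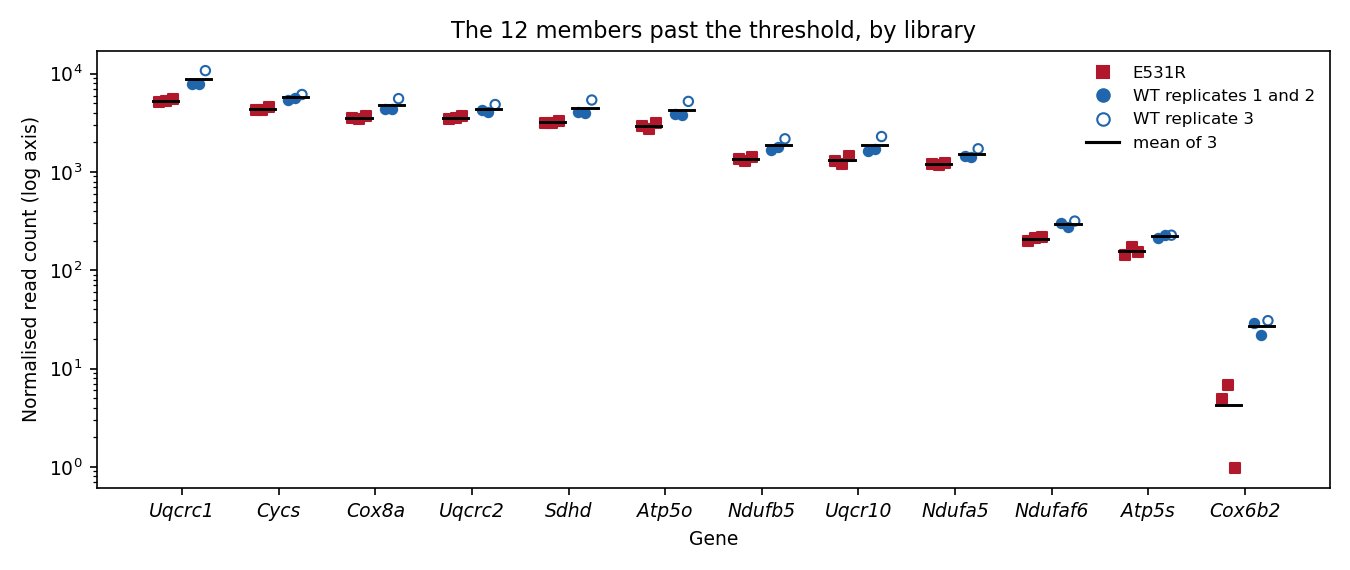
Normalised read counts of the 12 members lower in E531R (limma, adjusted p under 0.05), on a log axis, with 1 point per library, E531R left of WT, WT replicate 3 as an open circle and a line for each group's mean of 3. In each gene the 3 E531R points lie below the 3 WT points, and WT replicate 3 is the highest.

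Promoters of the nuclear members were compared for short motifs of factors known to act on respiratory genes: the NRF1 motif, GCGCA directly followed by TGCGC, the ETS motif CCGGAAG, which GABP binds, the YY1 motif AAGATGGC and the E-box CACGTG, each on both strands. RefSeq windows (GRCm38.p6) from 250 bases before to 50 after the start were found for 79 of 93 nuclear members. The ETS motif was in 20 of these (25.3%) and in 9.93% of 27025 promoters of all genes, the YY1 motif in 11 (13.9%) and in 3.19%, and the NRF1 motif in 7 (8.86%) and in 1.07%. The E-box was in 7 (8.86%) and in 8.09% of all promoters. The members had to reach a mean of 10, while the promoters of all genes were taken without that filter. The shares are therefore a description and not a comparison with genes of like expression. Of the 10 called members with a window, 2 held the ETS motif, Sdhd and Cox8a, and 1 held the NRF1 motif, Uqcrc1.

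The stretch from 120 bases before to 30 after the start is given for 4 called members: Sdhd and Cox8a because they hold the ETS motif, in capitals as its reverse complement CTTCCGG, and Uqcrc1 and Cycs because they had the smallest adjusted p of the 12. A match of letters is a description and not a bound site, and the NRF1 match of Uqcrc1 lies after the stretch shown. The windows are chr9:50603820-50603969 (minus strand) for Sdhd, chr19:7217587-7217736 (minus strand) for Cox8a, chr9:108936528-108936677 (plus strand) for Uqcrc1 and chr6:50566540-50566689 (minus strand) for Cycs.
Sdhd: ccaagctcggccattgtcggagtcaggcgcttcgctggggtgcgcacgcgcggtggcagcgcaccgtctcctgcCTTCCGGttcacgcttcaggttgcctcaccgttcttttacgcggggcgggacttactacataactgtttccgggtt
Cox8a: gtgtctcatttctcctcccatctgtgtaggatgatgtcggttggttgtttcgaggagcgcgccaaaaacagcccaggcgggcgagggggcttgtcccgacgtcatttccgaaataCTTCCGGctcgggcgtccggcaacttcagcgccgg
Uqcrc1: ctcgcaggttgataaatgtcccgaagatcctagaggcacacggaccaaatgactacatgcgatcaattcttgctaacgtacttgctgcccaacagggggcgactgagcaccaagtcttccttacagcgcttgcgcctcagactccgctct
Cycs: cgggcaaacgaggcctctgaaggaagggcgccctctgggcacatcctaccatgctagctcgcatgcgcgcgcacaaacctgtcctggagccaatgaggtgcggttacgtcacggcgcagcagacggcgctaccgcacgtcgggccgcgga

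Complex I, NADH dehydrogenase, is the largest assembly of the chain. Of its 43 nuclear genes 3 were lower and 0 higher, with a median log2 fold change of -0.23. Without WT replicate 3 there were 19 lower and 1 higher with a median of -0.11. For this and the other complexes, 9.53% of all genes were lower and 10.4% higher with 6 libraries. These shares were 23.1% and 24.3% without WT replicate 3. Ndufb5, an accessory subunit of the membrane arm, had a normalised read count of 1352, 1281 and 1405 in the E531R libraries and 1682, 1796 and 2176 in the WT libraries. The groups did not overlap, and its log2 fold change was -0.48 ± 0.11 (SE, adjusted p = 0.0213) with 6 libraries and -0.37 (adjusted p = 1.3e-05) without WT replicate 3. Ndufa5, an accessory subunit of the hydrophilic arm, had 1206, 1169.7 and 1231 in E531R and 1448, 1426 and 1723 in WT, for a log2 fold change at -0.34 ± 0.09 (SE; limma adjusted p = 0.0398).

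Ndufaf6, which helps to assemble complex I, had a normalised read count of 199, 212 and 217 in E531R libraries and 303, 277 and 316 in WT libraries, again without overlap. Its log2 fold change was -0.51 ± 0.10 (SE, limma adjusted p = 0.0101), the lowest among the nuclear complex I genes. Of the other 10 assembly factors in the rule none passed the test with 6 libraries, and with Ndufaf6 there were 2 of 11 lower at an unadjusted p under 0.05, a share near the 16.5% of all genes, and 1 by edgeR. Without WT replicate 3, 2 of 11 were lower at an adjusted p under 0.05, where 23.1% of all genes were. Ndufaf4, another complex I assembly factor, was lower once WT replicate 3 was left out, with 908, 955 and 1017 in E531R and 1089, 1142 and 846 in WT, where the third WT value is the lowest of the 6 (log2 fold change -0.22, limma adjusted p = 0.00432).

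The 7 nuclear core subunits, which hold the flavin and the iron-sulfur clusters, gave no call with 6 libraries by limma or edgeR, although 3 were lower at an unadjusted p under 0.05, as were 16.5% of all genes. Of the 7, 4 were lower without WT replicate 3. Ndufv1, the subunit that binds NADH, had 2106, 2041 and 2245 in E531R and 2567, 2382 and 3269.6 in WT. Its log2 fold change was -0.35 (adjusted p = 0.0987) with 6 libraries and -0.22 (adjusted p = 0.00146) without WT replicate 3. Ndufs1, which carries iron-sulfur clusters, had 2693, 2855 and 2901 in E531R and 3183, 3231 and 2815 in WT, so that WT replicate 3 lay among the E531R values. It passed the test without that library (a difference of -0.19, limma adjusted p = 0.00131).

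The 29 accessory subunits ranged from -0.48 to 0.03 on the log2 scale, and 2 of them, Ndufb5 and Ndufa5, were lower. With WT replicate 3 left out, 13 of the 29 were lower and 1 was higher. Ndufb3, Ndufa7 and Ndufa13, all accessory subunits, had log2 fold changes of 0.03, -0.02 and -0.03 with 6 libraries and 0.06, 0.14 and 0.12 without WT replicate 3. Of these Ndufa7 was the 1 nuclear member called higher without that library, at an adjusted p of 0.0499 by limma.

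Complex II, succinate dehydrogenase, also works in the tricarboxylic acid cycle and is encoded wholly in the nucleus. Of its 8 genes, 4 subunits and 4 assembly factors, 1 was lower and 0 higher, with a median log2 fold change of -0.23. Without WT replicate 3 there were 3 lower, all of them subunits, with a median of -0.10. Sdhd, a membrane anchor, had 3182, 3132 and 3284 in E531R and 4053, 3949 and 5399 in WT. Its log2 fold change stood at -0.47 ± 0.13 (SE; limma adjusted p = 0.0418). Sdha, the flavoprotein that oxidises succinate, had 8757, 8748 and 9249.9 in E531R and 10338, 10138 and 11542 in WT, with no overlap. It missed the threshold with 6 libraries (log2 fold change -0.26, limma adjusted p = 0.0594). Sdha and Sdhc, the other membrane anchor, passed without WT replicate 3 at log2 fold changes of -0.20 and -0.12. The iron-sulfur subunit Sdhb did not pass in either fit, at -0.24 and -0.07.

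Among the 9 nuclear genes of complex III, ubiquinol-cytochrome c reductase, 3 were lower and 0 higher with a median log2 fold change of -0.32. There were 7 lower without WT replicate 3 with a median of -0.20. Uqcrc1, core protein 1 of the complex, had 5117, 5272 and 5531 in the E531R libraries and 7766, 7913 and 10750.5 in the WT libraries. Its highest E531R value lay below its lowest WT value, and its log2 fold change was -0.72 ± 0.13 (SE, limma adjusted p = 0.00937), or -0.56 (adjusted p = 4.78e-09) without WT replicate 3. Its partner, core protein 2, encoded by Uqcrc2, had 3456, 3544 and 3673 in E531R and 4227, 4094 and 4858 in WT, a smaller change of -0.30 ± 0.08 (SE, limma adjusted p = 0.0471). Uqcr10, a small subunit, had 1307, 1216 and 1446 in E531R and 1643, 1730.2 and 2295 in WT (log2 fold change -0.50 ± 0.14, SE, limma adjusted p = 0.048).

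The 2 nuclear subunits that carry electrons in complex III did not pass with 6 libraries. Cyc1, cytochrome c1, had 3961, 3782 and 4157 in E531R and 4120.1, 4150.3 and 5894 in WT, so that WT replicates 1 and 2 lay within the E531R range and WT replicate 3 above it. Its log2 fold change was -0.23 with 6 libraries and -0.06 without that one. Uqcrfs1, the Rieske iron-sulfur protein, was at -0.32 with 6 libraries and passed without WT replicate 3 at -0.20 (limma adjusted p = 0.00487). Uqcrb, a small subunit, was at -0.04 with 6 libraries and -0.04 without that one and did not pass.

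Cytochrome c, the soluble carrier between complexes III and IV that also triggers caspase activation when released, is encoded in somatic cells by Cycs. Cycs had a normalised read count of 4238, 4254 and 4589.9 in E531R and 5440.2, 5724 and 6146 in WT. The groups did not overlap, WT replicate 3 stood close to the other WT libraries, and the difference of -0.40 ± 0.07 on the log2 scale (SE, limma adjusted p = 0.0096) was -0.36 without WT replicate 3 (adjusted p = 3.01e-06). After removal of a GC and length trend from each library its log2 fold change was -0.70 with an adjusted p of 0.0501, and -0.40 with an adjusted p of 4.71e-08 when WT replicate 3 was left out as well. Of the 50-base windows of its transcript 28.5% also occur in transcripts of 76 other annotated genes, so part of its count depends on how shared reads were assigned.

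Complex IV had 14 nuclear genes, of which 2 were lower and 0 higher with a median log2 fold change of -0.28. There were 9 lower without WT replicate 3 with a median of -0.16. Cox8a, a small membrane subunit, had 3510.0, 3424 and 3675 in E531R and 4332, 4355 and 5577 in WT (log2 fold change -0.42 ± 0.11, SE, limma adjusted p = 0.0399). Cox4i1, the ubiquitous form of the regulatory subunit 4, had 6878, 6631 and 7252 in E531R and 8526, 8291 and 11684 in WT. These groups did not overlap either, but the call depended on the fit: its log2 fold change was -0.44 ± 0.14 (SE, limma adjusted p = 0.0689) with 6 libraries, and -0.28 (adjusted p = 2.51e-05) without WT replicate 3. In the authors' deposited table Cox4i1 was below the threshold, with an adjusted p of 0.0291.

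Several subunits of complex IV exist in forms that differ between tissues. Cox6b2, the testis form of subunit 6b, was at a low level, with 4.86, 6.81 and 0.973 in E531R and 28.7, 21.8 and 30.7 in WT. This was a difference of -2.63 ± 0.53 on the log2 scale (SE, limma adjusted p = 0.0132). The WT libraries lay together and the E531R libraries near 0. Cox6b2 reached the minimum mean of 10 through its WT values, since its mean was 4.22 in E531R and 27.1 in WT, so its call is given as a description. Its fold change was -2.04 without E531R replicate 3. Its ubiquitous counterpart Cox6b1 had 2589, 2609 and 2843 in E531R and 3118, 3005 and 4008 in WT. Its log2 fold change was -0.32 (adjusted p = 0.113) with 6 libraries and -0.19 (adjusted p = 0.00222) without WT replicate 3.

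The muscle form Cox7a1 was likewise low, with 36.8, 34.1 and 35 in E531R and 43.1, 42.5 and 49.6 in WT. It did not pass the test (log2 fold change -0.34, limma adjusted p = 0.177). Its counterpart Cox7a2, present in most tissues, had 2058, 1929 and 2243 in E531R and 1955, 1924 and 2629.6 in WT, so the groups overlapped. Its log2 fold change of -0.05 turned to 0.10 without WT replicate 3. The forms Cox4i2, a hypoxia-linked form, and Cox6a2, a muscle form, had only 13 and 39 reads over the E531R libraries and 10 and 21 over the WT libraries. Per kilobase of transcript, with counts averaged over all libraries, Cox6a1 stood at 9144 and Cox4i1 at 10733, above Cox8a at 7537, while Cox7a1 stood at 102 and Cox6b2 at 26.8.

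The Atp5 names took in 18 nuclear genes, counted here under ATP synthase. They were 5 F1 subunits, 10 stalk and Fo subunits, Atp5s and Atp5sl, which are related in name, and the pseudogene Atp5l2-ps. Of the 18, 2 were lower and 0 higher with a median log2 fold change of -0.29. The 2 were the subunit Atp5o and Atp5s, which is not counted as a subunit. There were 11 lower without WT replicate 3 with a median of -0.16. Atp5b, the catalytic beta subunit, had the highest count per kilobase of all nuclear subunits, 21696, followed by Atp5a1, the alpha subunit, at 12012. Atp5b had 35882, 35449 and 37988 in E531R and 42107, 41487 and 56504 in WT, with no overlap. Its difference was -0.34 ± 0.13 on the log2 scale (SE, limma adjusted p = 0.125) with 6 libraries against -0.20 (adjusted p = 0.000943) without WT replicate 3. Atp5a1 had 26227, 25704 and 27435 in E531R and 29739, 29502 and 39481 in WT, again with no overlap. Atp5o, the peripheral stalk subunit also called OSCP, was lower, with 2928, 2746 and 3168 in E531R and 3899.8, 3806 and 5226 in WT (log2 fold change -0.54 ± 0.13, SE, limma adjusted p = 0.0323).

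Of the other called gene, Atp5s, the counts were 144, 172 and 154 in E531R and 212, 227 and 228 in WT, with no overlap and with WT replicate 3 level with WT replicate 2 (log2 fold change -0.51 ± 0.11, SE, limma adjusted p = 0.0167). The 3 genes Atp5g1, Atp5g2 and Atp5g3 encode the same mature c subunit, which forms the rotor ring. None of them passed with 6 libraries (log2 fold changes -0.32, -0.27 and -0.34), and all of them passed without WT replicate 3, at -0.19, -0.13 and -0.21. Atp5g2 shares 87.4% of its windows with other transcripts, so its count is uncertain. In none of the 5 complexes was a nuclear gene higher at an unadjusted p under 0.05 or by edgeR with 6 libraries.

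**Figure D2:**
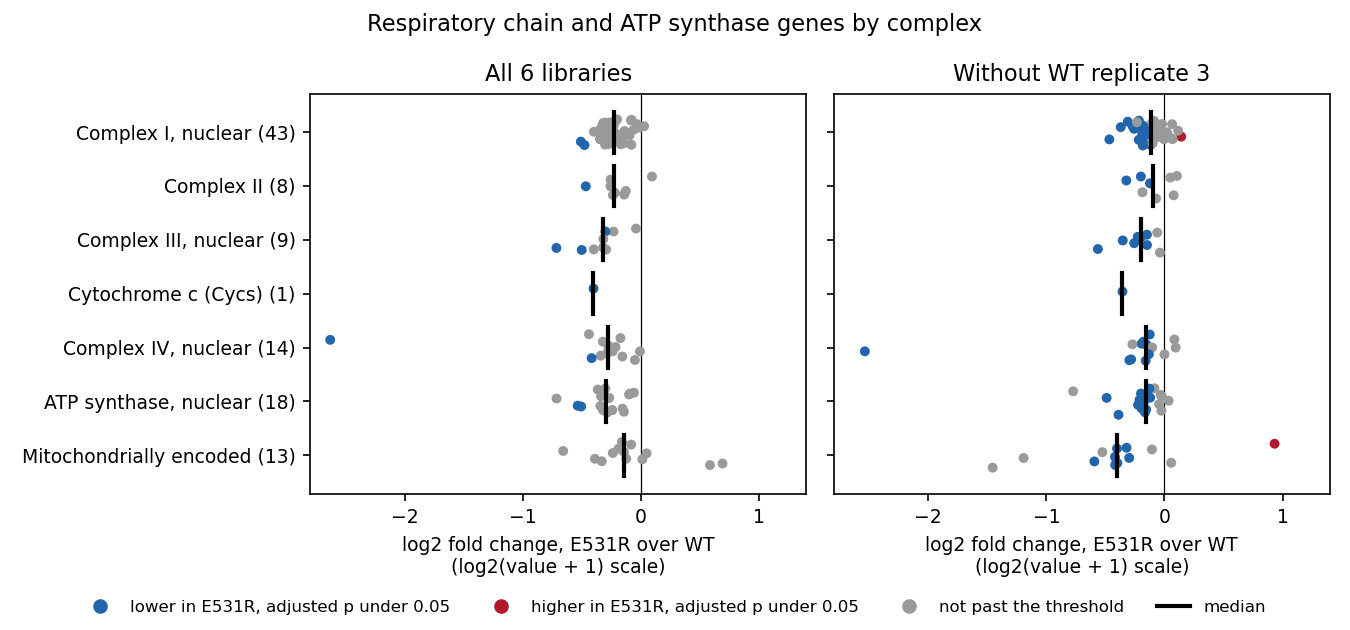
Log2 fold changes of E531R over WT for each member, by complex and genome, with all 6 libraries and without WT replicate 3. Nuclear members lie mostly below 0 in both fits, with a median of -0.26 and of -0.15, while the mitochondrial members scatter more widely.

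Over the 93 nuclear members, the median fold of E531R over WT was 0.837 with 6 libraries and 0.903 without WT replicate 3. In 86 of 93 the highest value of all 6 libraries was that of WT replicate 3, whose median fold over the mean of WT replicates 1 and 2 was 1.30 for these genes, against 1.06 over all genes tested. Leaving that library out thus reduced the size of the difference and raised the number of calls. There were then 50 lower and 1 higher of 93, where 23.1% of all genes were lower and 24.3% higher. The nuclear members made up 1.05%, 1.04% and 1.10% of the normalised counts in the E531R libraries and 1.23%, 1.22% and 1.49% in the WT libraries, so the lowest WT share lay above the highest E531R share. As sums of normalised read counts the nuclear members ran from 240116 to 258852 in E531R and from 276647 to 357799 in WT.

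**Figure D3:**
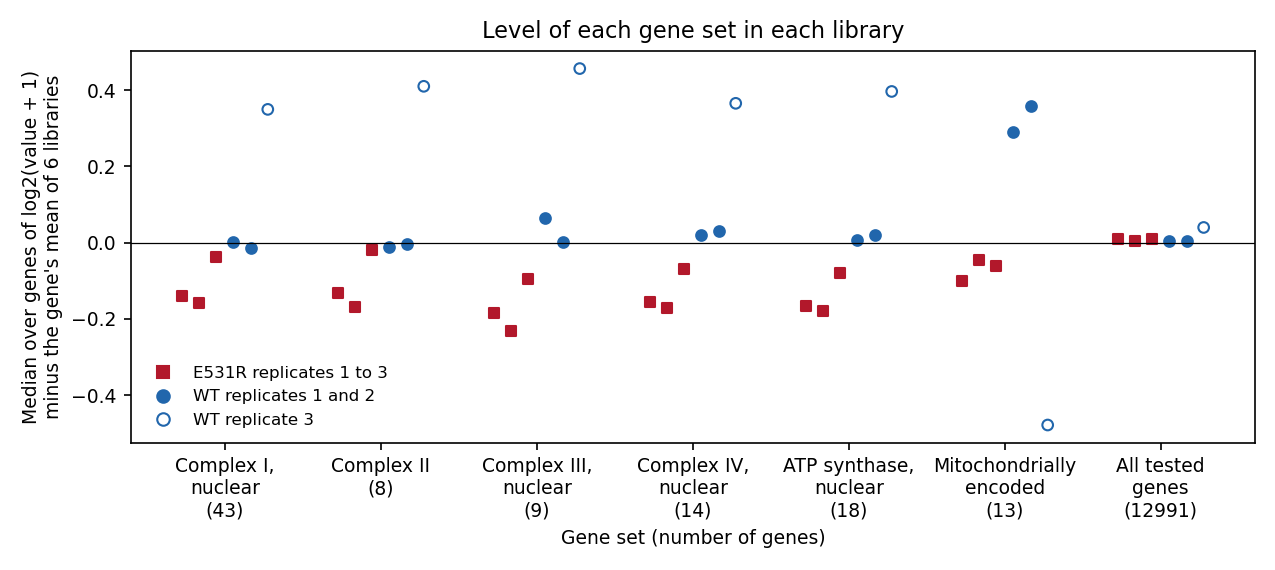
Median over the genes of each set of log2(value + 1) minus the gene's mean over the 6 libraries, with 1 point per library, E531R left of WT, and WT replicate 3 as an open circle. In the nuclear sets of complexes I to V the 3 E531R points lie below the WT points and WT replicate 3 lies highest, while in the mitochondrially encoded set WT replicate 3 lies lowest and all tested genes lie near 0.

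The position of WT replicate 3 among the nuclear members went with GC content. Across the 93 nuclear members the difference of WT replicate 3 from WT replicates 1 and 2 correlated with transcript GC content at a Pearson r of 0.63 and a Spearman rho of 0.668, given as a description, since the points share the same libraries and genes are not independent replicates. Over 12850 nuclear genes the values were 0.584 and 0.639. At like GC content the members still lay higher in that library than genes at large: in the decile of genes with a GC content of 48.3% to 50.1%, the median difference was 0.37 for 15 members and 0.07 for all genes. The members' median was the higher one in each of the other deciles. With a GC and length trend removed from every library, 26 of 93 nuclear members were lower and 0 higher, at a background of 16.0% and 14.3% of all genes. The median deviation of the nuclear members from their mean over libraries was -0.15, -0.16 and -0.09 in E531R and 0.03, 0.02 and 0.30 in WT.

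**Figure D4:**
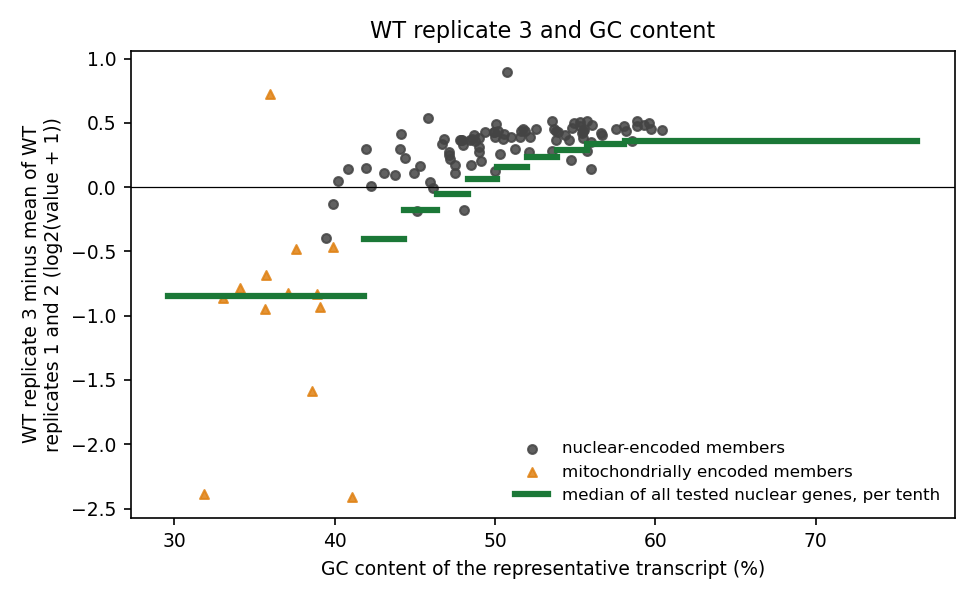
Log2 difference of WT replicate 3 from the mean of WT replicates 1 and 2 against transcript GC content (percent), for nuclear members (circles) and mitochondrial members (triangles), with bars for the median of all tested nuclear genes per decile of GC content. The bars climb from -0.85 to 0.36, and the nuclear members lie mostly above them.

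Of the 13 mitochondrially encoded genes, with 6 libraries 0 were lower and 0 higher by limma and by edgeR, none had an unadjusted p under 0.05, and the median log2 fold change was -0.14. Without WT replicate 3, 7 were lower (mt-Nd1, mt-Nd2, mt-Nd4, mt-Nd5, mt-Nd6, mt-Cytb and mt-Co3) and 1 was higher (mt-Atp6). The median was then -0.40, and 23.1% of all genes were lower and 24.3% higher without WT replicate 3. In that library the median fold over WT replicates 1 and 2 was 0.562, so here it stood low where it stood high for the nuclear genes. The mitochondrial genes have a GC content of 31.9% to 41.1%, and in the lowest decile of nuclear genes by GC content the median fold of that library was 0.556. With a GC and length trend removed from every library, 2 of the 13 were lower, mt-Cytb and mt-Nd5, and 0 higher, with a median log2 fold change of -0.40. The median deviation of the 13 from their mean over libraries was then -0.19, -0.22 and -0.18 in E531R and 0.08, -0.01 and 0.42 in WT, so that WT replicate 3 stood highest. That trend was fitted on nuclear genes and was applied unchanged to the mitochondrial ones.

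The complex I subunit mt-Nd1 had 41111, 43141 and 45051 in the E531R libraries and 53376, 54210.4 and 38602 in the WT libraries. mt-Nd5, another membrane subunit of complex I, had 25355, 25207 and 23747 in E531R and 32264, 33881 and 18675 in WT. mt-Nd6, annotated on the minus strand, had 4438, 4340.3 and 4289 in E531R and 6074, 7110.1 and 3809.7 in WT. In these 3, and in mt-Nd2 and mt-Nd4, the E531R libraries lay close together, between WT replicate 3 below and WT replicates 1 and 2 above. mt-Cytb, the cytochrome b of complex III, had 36919, 37238 and 38669.9 in E531R and 45764, 46742 and 24238 in WT. The log2 fold change of 0.01 with 6 libraries was -0.30 (limma adjusted p = 1.25e-05) without WT replicate 3. mt-Co1, the catalytic subunit of cytochrome c oxidase, had 162778, 166020.0 and 168158 in E531R and 178221, 178297 and 129368 in WT. It did not pass in either fit (0.05 and -0.11).

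**Figure D5:**
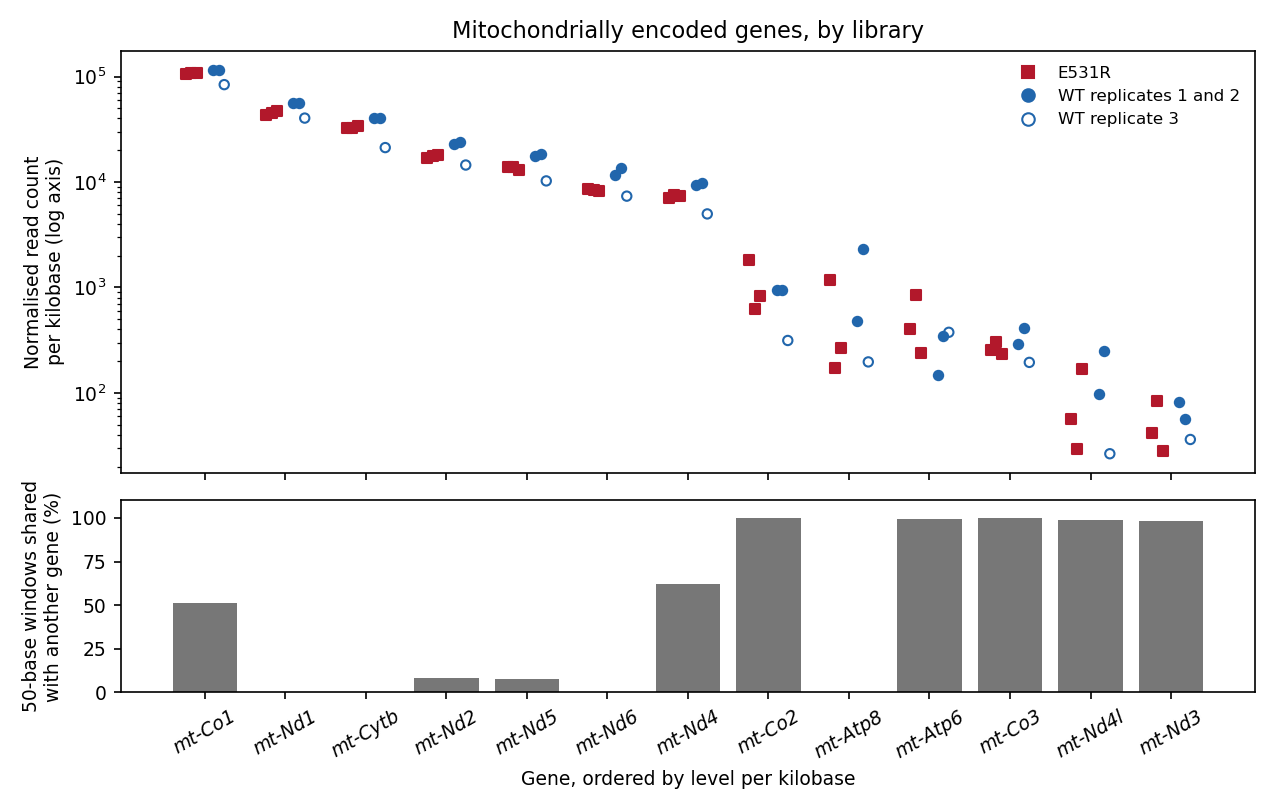
Upper panel, normalised read count per kilobase of the 13 mitochondrial genes on a log axis, with 1 point per library, E531R left of WT, and WT replicate 3 as an open circle; lower panel, percent of 50-base windows shared with another annotated gene. In mt-Nd1, mt-Nd2, mt-Nd4, mt-Nd5, mt-Nd6, mt-Cytb and mt-Co1 the E531R points lie between WT replicate 3 and the other 2 WT libraries, and the 6 genes of low level scatter within both groups, 5 of them with at least 98.0% of windows shared.

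The level of the mitochondrial genes per kilobase fell into separate ranges, from 106024 for mt-Co1 and 47978 for mt-Nd1 down to 7684 for mt-Nd4, and then 913 for mt-Co2, 769 for mt-Atp8, 393 for mt-Atp6, 282 for mt-Co3, 104 for mt-Nd4l and 54.8 for mt-Nd3. In the lower range, mt-Co2, mt-Co3, mt-Atp6, mt-Nd4l and mt-Nd3 shared between 98.0% and 100% of their 50-base windows with other annotated genes. For each of them the gene that shared most windows was an annotated copy on chromosome 1. There, 7 such copies of mitochondrial genes lie between 24611535 and 24616197 (GRCm38). mt-Atp8 shared no window with another annotated transcript, but it overlaps mt-Atp6 in position. Sharing was not limited to the lower range, since mt-Nd4 shared 62.2% and mt-Co1 51.1% of windows, while mt-Nd1, mt-Nd6 and mt-Cytb shared none. mt-Co2, a subunit of complex IV, was identical to the copy Gm28661 over 681 of its 684 bases. Its first 90 bases, from the transcript at chrM:7013-7696 on the plus strand (GENCODE M21, GRCm38), are shown because they are found unchanged in that copy, at chr1:24614885-24615565 on the minus strand.
mt-Co2: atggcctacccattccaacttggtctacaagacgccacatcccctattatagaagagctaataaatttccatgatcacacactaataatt

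Counts of these genes scattered within both groups. mt-Co2 had 1244, 427 and 570.5 in E531R and 648, 643 and 215 in WT. mt-Co3 had 200.1, 238 and 183 in E531R and 228, 325 and 153 in WT. mt-Atp6, a subunit of the proton channel of ATP synthase, had 275, 576 and 163 in E531R and 101, 237 and 256 in WT. Without WT replicate 3, mt-Atp6 was the single higher call of these genes (a log2 difference of 0.93, limma adjusted p = 0.0482). Over most of its length its reads cannot be told apart from those of other annotated genes. The same holds for mt-Co3, which was called lower. mt-Atp8, the other subunit of the proton channel, had 243, 35 and 54.5 in E531R and 97.4, 472 and 40.2 in WT, and neither fit called it. mt-Nd3 and mt-Nd4l, with at most 73.5 in any library, were not called either. The mitochondrial members together took 1.29%, 1.32% and 1.31% of normalised counts in E531R libraries and 1.56%, 1.59% and 0.985% in WT libraries. Their ratio to the nuclear members was 1.23, 1.27 and 1.20 in E531R and 1.27, 1.30 and 0.663 in WT, so that WT replicates 1 and 2 lay at or just above the E531R values.

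Of 12 tested regulators known to act on such genes, 1 was lower and 0 higher by limma and by edgeR, none of them at an unadjusted p under 0.05 toward higher values, with a median log2 fold change of 0.07. Without WT replicate 3 there were 2 lower and 4 higher. For this list and those below, 9.53% of all genes were lower and 10.4% higher with 6 libraries. These shares were 23.1% and 24.3% without WT replicate 3. Ppargc1b, a coactivator of mitochondrial genes, had 182, 176 and 172 in E531R and 423, 344 and 365 in WT, with no overlap (log2 fold change -1.08 ± 0.11, SE, limma adjusted p = 0.000507). The factor NRF1, encoded by Nrf1, averaged 1637 ± 26.3 in E531R and 1531 ± 211 in WT (SD, n = 3 each). With 6 libraries this difference missed the threshold, and with WT replicate 3 left out Nrf1 was higher by 0.21 on the log2 scale (adjusted p from limma of 0.000988). Gabpa, a subunit of GABP, averaged 2599 ± 47.0 in E531R and 2158 ± 641 in WT (SD, n = 3 each), where WT replicate 3 was the low library, and did not pass in either fit.

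Of 22 tested genes that maintain and express the mitochondrial genome, 5 were lower and 0 higher with a median of -0.14, and 9 were lower without WT replicate 3 with a median of -0.20. Top1mt, the mitochondrial topoisomerase, had 284, 275 and 273 in E531R and 479, 419 and 516 in WT (log2 fold change -0.76 ± 0.10, SE, limma adjusted p = 0.00211). Peo1, the helicase Twinkle, averaged 714 ± 10.4 in E531R and 966 ± 72.6 in WT, and Fastkd2, an RNA-binding protein of mitochondrial RNA granules, 637 ± 21.6 in E531R and 854 ± 29.3 in WT (SD, n = 3 each). Tfam, which packages and transcribes the mitochondrial genome, averaged 1164 ± 39.7 in E531R and 1282 ± 108 in WT (SD, n = 3 each) and passed only without WT replicate 3 (limma adjusted p = 0.00673). Of 76 mitochondrial ribosomal protein genes 6 were lower and 0 higher with a median of -0.20, where 9.53% of all genes were lower and 10.4% higher. Without WT replicate 3 there were 26 lower and 2 higher with a median of -0.09, where 23.1% and 24.3% of all genes were.

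Of 11 assembly factors of complex I that the names above do not cover, none passed by limma or edgeR, though 3 were lower at an unadjusted p under 0.05, where 16.5% of all genes were (median log2 fold change -0.20, and 5 lower without WT replicate 3). Of 29 assembly factors of complexes III and IV, 3 were lower and 0 higher, Coa7, Lyrm7 and Uqcc1, with a median of -0.21. Leaving out WT replicate 3 gave 8 lower and 1 higher. Coa7, an assembly factor of complex IV, had 370.4, 337 and 348 in E531R and 479, 453 and 594 in WT. Of 7 genes listed as assembly and inner membrane factors of ATP synthase 1 was lower, the assembly factor gene 1110001J03Rik. It had 319.7, 324 and 330.0 in E531R and 442, 460.4 and 596 in WT. Leaving out WT replicate 3 gave 4 lower of the 7.

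Of 18 genes of the tricarboxylic acid cycle and of pyruvate dehydrogenase 4 were lower and 0 higher, with a median log2 fold change of -0.23. The 4 were Suclg2, Idh3a, Idh3b and the pyruvate dehydrogenase gene Pdhb. Without WT replicate 3, 14 were lower, where 23.1% of all genes were, against 9.53% with 6 libraries. Suclg2, a subunit of succinyl-CoA ligase, had 1797, 1834 and 1819 in E531R and 2391, 2331 and 2367 in WT, where WT replicate 3 stood level with the others (log2 fold change -0.38, limma adjusted p = 0.00432). Of 26 import and inner membrane genes 3 were lower and 0 higher, and 17 were lower without WT replicate 3. Among them Apoo, a subunit of the MICOS complex that shapes cristae, had 318, 339.6 and 347 in E531R and 560.3, 615 and 626 in WT (log2 fold change -0.84 ± 0.09, SE, limma adjusted p = 0.000602).

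The exchange carrier Slc25a4, which moves ADP in and ATP out of mitochondria, had 2461, 2366 and 2485 in E531R and 3427, 3512 and 3806 in WT. It was the 1 lower gene of 12 carriers with 6 libraries (log2 fold change -0.55 ± 0.07, SE, limma adjusted p = 0.00158). Leaving out WT replicate 3 gave 3 lower and 3 higher carriers, where 23.1% of all genes were lower and 24.3% higher. Their median was -0.09 with 6 libraries and -0.02 with 5. Of 20 genes that make or reduce ubiquinone, 2 were lower, Pdss2 and Coq7, and 1 was higher, against 7 lower and 1 higher without WT replicate 3. The higher one was Sqrdl, sulfide quinone oxidoreductase, which feeds electrons from sulfide into the ubiquinone pool. It had 602, 584 and 653 in E531R and 407, 347 and 459.8 in WT (log2 fold change 0.61 ± 0.12, SE, limma adjusted p = 0.0122). Sqrdl was also the 1 gene of these 10 lists that was higher by edgeR or at an unadjusted p under 0.05 with 6 libraries.

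Whether the 12 called genes passed depended on single libraries, while their fold changes stayed negative in each fit that left out 1 library. Of the 12 called genes 1 was kept without E531R replicate 1, 3 without E531R replicate 2 and 4 without E531R replicate 3. There were 7 kept without WT replicate 1, 9 without WT replicate 2 and 12 without WT replicate 3. The share of all genes called lower moved in the same order. It was 5.74%, 5.79% and 6.07% without E531R replicates 1, 2 and 3. Without WT replicates 1, 2 and 3 it was 6.94%, 8.11% and 23.1%, against 9.53% with 6 libraries. The 1 gene kept without E531R replicate 1 was Cox6b2, which reached the minimum mean through its WT values. It was also the 1 gene kept in all of these fits. Apart from Cox6b2, the log2 fold changes of the called genes ran from -0.80 to -0.23 over these fits. The authors' deposited table also called 12 members, 11 of them shared, with Uqcrc2 replaced by Cox4i1, where 7.50% of 16596 genes were lower and 7.91% higher. Of the 12 called genes 8 shared no window with another annotated transcript, and 45 of the 105 members with a window value shared none. Ndufb5 and Uqcrc2 share 16.2% and 24.8% of their windows with the antisense genes Mrpl47 and Pdzd9, so that these reads cannot be told apart where strand was not used, and Atp5o shares 34.0% of its windows with other annotated transcripts.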

How the data were processed

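RNA-seq gene values of 6 mouse marrow cell libraries, 3 E531R and 3 WT by their titles, were read from 1 deposited table of 47593 rows. The submitters' processing notes name HISAT2, featureCounts, DESeq2, SAMtools, cutadapt and FastQC and the build GRCm38, without versions, annotation or strand setting. The values are a signal: the authors scaled each library's gene counts by a size factor, and 100% came out as whole reads within 0.001 reads. The deposited log2 fold change, its Wald score and its p-value are the authors', of WT over E531R, with the sign turned here.

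limma 3.58.1 (R 4.3.3) with an intensity trend was fitted to log2(value + 1), a pseudocount of 1, over the 12991 genes with a mean of at least 10. The test was two-sided with Benjamini-Hochberg adjustment, threshold 0.05. Log2 fold changes on this scale understate low genes. Size factors would hide a shift shared by all genes. The fit was tested on simulated counts with the same dispersion for all genes and no deviating library. That test does not cover a library such as WT replicate 3, or changes as small as those of most members. Alternatives were edgeR 4.0.16, DESeq2 1.42.0, voom, array weights, other pseudocounts, filters and scalings, the replicate block, each library left out, and GC and length trends (natural splines of 5 degrees of freedom) removed per library. The combination of trend removal with leaving out WT replicate 3 was chosen after seeing the data. GENCODE M21 gave positions, lengths and sequence for 45250 rows by symbol and 611 through synonyms. Promoters came from RefSeq, and only annotated transcripts were searched for copies, by 50-base windows.

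Members and lists were chosen with earlier results of these data known. Named genes are all mitochondrial members, Cycs, Cyc1, per complex the 3 nuclear members of smallest p and the 2 of highest mean, isoform sets, and up to 3 genes of smallest p per other list. Ndufv1, Ndufb3, Ndufa7, Ndufa13, Ndufaf4, Sdhb, Sdhaf2, Uqcrfs1, Uqcrb, Nrf1, Gabpa and Tfam were added after their values were seen. The values of 1 gene that this rule names are not reported here, though it is in the counts.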

Additional observations from a re-analysis of the deposited data

How the results depend on the processing

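Of 816 results of the 41 named members under 20 alternatives, 664 kept their direction and their side of the threshold, 43 lost it, 81 gained it and 28 changed sign. The median of nuclear members stayed negative in every alternative, with -0.32 to -0.15 when 1 library was left out. The number of lower members was 61 with array weights, 28 with GC and length trends removed, 55 with trends removed and the replicate block, and 71 with trends removed and without WT replicate 3. In these fits 25.1%, 16.0%, 17.2% and 26.4% of all genes were lower, against 9.53% in the main test. It was 1 to 57 when 1 library was left out, with 5.74% to 23.1% of all genes lower. The number of higher members was 2 with array weights, 1 with trends removed and without WT replicate 3, and 0 to 2 when 1 library was left out. With the replicate block alone, 13 members were lower and 0 higher, where 8.17% and 9.08% of all genes were. Deviations of same-numbered libraries correlated at 0.002, 0.192 and 0.238, and those of different-numbered libraries at -0.231 to 0.177. The numbers were not taken as pairs in the main test, and whether the libraries were paired was not tested. The median of mitochondrial members ranged from -0.40 to 0.13 when 1 library was left out, and the cause was not tested.

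The changes of sign were as follows, and their cause was not tested. mt-Cytb, 0.012 with 6 libraries, was -0.019 with upper-quartile rescaling, -0.041 with edgeR, -0.046 with DESeq2, -0.29 with array weights, -0.27 with trends removed, also with the replicate block added, and -0.29 with trends removed and without WT replicate 3. mt-Co1 was -0.11 with array weights, -0.23 with trends removed, also with the replicate block added, and -0.11 with trends removed and without WT replicate 3. Cox7a2 was 0.071 with array weights and 0.059 with trends removed and without WT replicate 3. When 1 library was left out, the log2 fold change ran from -0.65 to 0.10 for mt-Nd3, -0.40 to 0.095 for mt-Nd4, -1.19 to 0.34 for mt-Nd4l, -0.42 to 0.012 for mt-Nd5, -0.30 to 0.18 for mt-Cytb, -0.25 to 0.0004 for Cox6a1, -0.13 to 0.095 for Cox7a2, -0.11 to 0.13 for mt-Co1, -0.40 to 0.14 for mt-Co3 and -1.47 to 0.31 for mt-Atp8. With a mean of at least 50 there was no value for Cox6b2, Cox7a1, mt-Nd3 and mt-Nd4l. Array weights did not converge fully, and counting error limits members of low count.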
